A study of Rattus norvegicus with 18 samples.

Results

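The interferon response and antigen presentation genes are a module of 38 named rat genes, taken by name from a list of receptors, transcription factors, RNA sensors, antiviral effectors and proteins that load peptides onto class I molecules. The expression tables held 37 of them among 17455 genes, and Ifnar2, a chain of the type I interferon receptor, was not analysed here. The cells were H9c2, a myoblast line from rat heart, wild type in all groups and treated with bufalin, treated with periplocin or kept as control. Both compounds are cardiotonic steroids, known for inhibiting Na+/K+-ATPase, and the series' title spells periplocin as piperlopicin. The study's question was about toxicity to heart cells and a part in it for N6-methyladenosine (m6A), the commonest internal methylation of mRNA. Methylated RNA immunoprecipitation sequencing (MeRIP-seq) was run on 3 IP libraries, pulled down with an m6A antibody, and 3 input libraries per condition, 18 libraries in all. The sources used here give neither dose nor time, and nothing says whether replicates were separate cultures, so p-values measure only the spread between these samples, which may be technical.

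Type I interferons bind the receptor chains Ifnar1 and Ifnar2, which activate Stat2. Stat2 joins Irf9 in the complex ISGF3, which binds the interferon-stimulated response element (ISRE) in the promoters of antiviral genes. Cells start this chain when sensors such as Rig-I (gene Ddx58) and Mda5 (gene Ifih1) meet foreign RNA. Interferons also raise the immunoproteasome, the peptide transporter Tap and class I molecules, so that infected cells show more peptides on their surface. In mammalian cells m6A on RNA is known to lower its recognition by such sensors.

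The deposited files gave 1 value per gene or peak and comparison and none per library, so group levels are fitted means, worked out from each gene's mean normalized count (counts divided by library size factors) and its fold change. The files do not say if input or IP libraries made the expression tables. The listed genes spanned a wide range of depth, with mean normalized counts from 6.38 for Dhx58 to 13338 for Eif2ak2 with bufalin and from 4.73 to 13019 with periplocin. Standard errors of the log2 fold change ran from 0.06 to 1.34 with bufalin and from 0.05 to 1.68 with periplocin. The counts are not divided by transcript length, so they show how well a gene was measured and not which gene had more RNA. Reads of close copies such as the Ifit, Mx, Oas and Gbp families may be shared between genes, and their levels are uncertain to that extent. Of markers fixed for other cell types, 2 of 8 leukocyte markers reached a mean of 10 with bufalin and 3 of 8 with periplocin, with Cd68 the highest at 79.6 and 69.5, and 3 of 8 were at 0 in each. Their summed fitted means were 127 with bufalin against 98.8 in control, and 116 with periplocin against 95.8 in control. Of the muscle markers, 5 of 7 with bufalin and 4 of 7 with periplocin reached that mean, as had 5 of 5 mesenchymal markers in each. The part of these marker levels in the results was not tested, and in bulk RNA fewer cells of a type and less RNA per cell cannot be told apart.

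No listed gene passed the test of RNA level with either compound. With bufalin, 0 of the 37 genes passed an adjusted p of 0.05, where 0.301% of all genes with an adjusted p did, but only 6 of the 37 had an adjusted p in the authors' deposited table, where the lowest mean of a gene with one was 2259. With the p-values adjusted again over all 12876 genes that had one, 0 of 37 passed, against 0.0932% of all genes. With periplocin all 37 had an adjusted p in the authors' deposited table and 0 passed, against 0.538% of all genes. After adjustment over all 12906 genes that had a p-value, the count with periplocin was again 0 of 37, against 0.519%. At an unadjusted p under 0.05, Ifit3 was the 1 gene with bufalin, where 5.0% of all genes passed, 3.04% higher and 1.96% lower. Irf3 was the 1 gene with periplocin, where 6.25% of all genes passed, 4.09% higher and 2.15% lower. In each comparison 1 gene is 2.70% of those listed, no more than the background.

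The median of the listed genes was close to that of all genes. Of the 36 that reached a mean of 10, 15 were above 0 and 21 below 0 with bufalin, and their median log2 change was -0.03, against 0.00 over 10674 genes. With periplocin 17 of 35 were above 0 and 18 below 0, with a median of -0.00, against -0.00 over 10688 genes. The log2 change was larger than its standard error in 33.3% of the listed genes with bufalin and in 37.1% with periplocin, against 30.7% and 31.3% of all genes. The comparisons share their control samples, so a like change with both compounds is not counted as support.

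**Figure D1:**
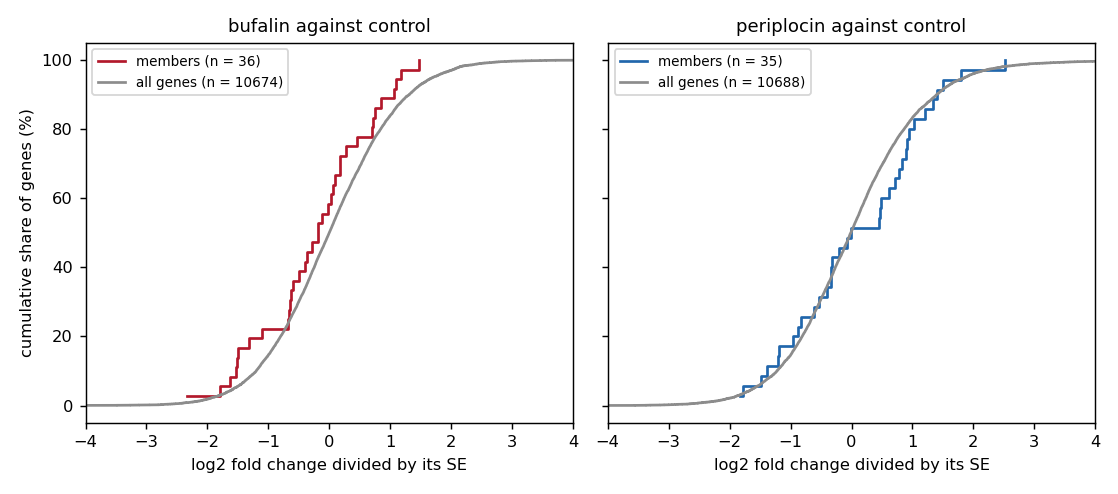
Cumulative share of genes (percent) by the log2 fold change divided by its SE, for the listed genes (coloured steps) and all genes with a mean of at least 10 (grey). With bufalin the coloured steps lie above the grey curve over most of the range, and with periplocin they cross it, with medians of -0.03 and -0.00 on the log2 scale.

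The width of the limits depended on depth. With bufalin, the 95% Wald interval of 23 of 36 genes lay within 1.5-fold of control on both sides, and that of 29 within 2-fold. With periplocin these numbers were 22 and 32 of 35. An interval within 1.5-fold was held by 63.9% of the listed genes with bufalin and 62.9% with periplocin, against 77.2% and 77.9% of all genes. The median mean normalized count of the listed genes was 379 with bufalin and 383 with periplocin, against 663 and 640 for all genes with a p-value.

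**Figure D2:**
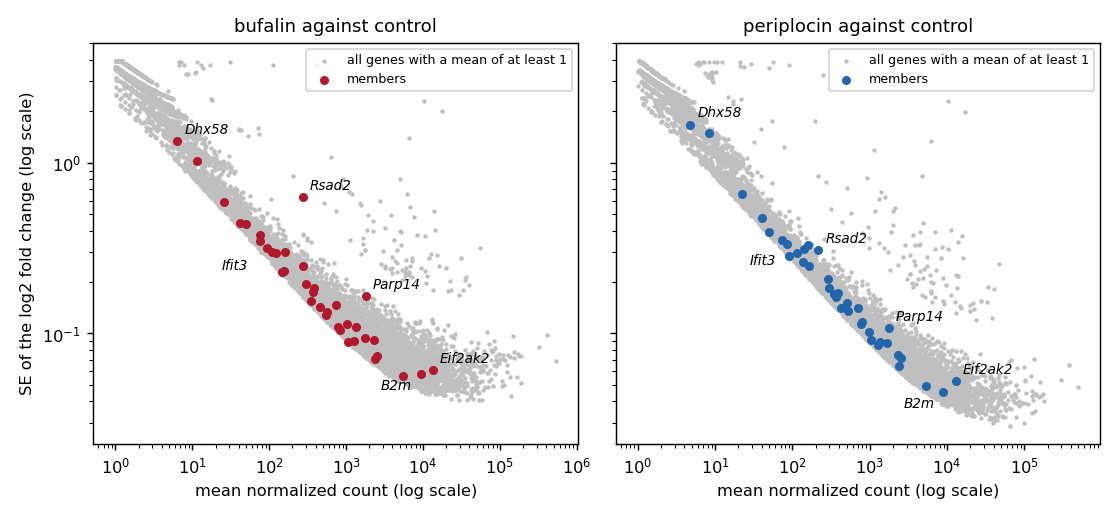
Standard error of the log2 fold change against the mean normalized count (both axes on a log scale), for all genes with a mean of at least 1 (grey) and the listed genes (coloured), with bufalin (left) and periplocin (right). Most listed genes follow the grey band, and Rsad2 with bufalin lies above it at an SE of 0.63.

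Promoters are shown for the 5 genes with the smallest unadjusted p among those with a promoter sequence, since the ISRE is the element that ISGF3 binds. They run from 250 bases before to 50 after the RefSeq start on build GRCr8, read 5′ to 3′ on the gene's strand, and capitals mark the ISRE core, TTTC and TTTC with any 2 bases between them, on either strand.
Ifit3, chr1:241527076-241527375, plus strand: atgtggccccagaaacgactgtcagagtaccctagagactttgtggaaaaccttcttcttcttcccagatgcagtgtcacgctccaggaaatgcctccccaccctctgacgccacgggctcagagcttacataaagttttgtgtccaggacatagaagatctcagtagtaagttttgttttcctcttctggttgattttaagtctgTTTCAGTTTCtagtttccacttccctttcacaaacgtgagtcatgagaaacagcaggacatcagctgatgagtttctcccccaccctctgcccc
Irf3, chr1:104616358-104616657, plus strand: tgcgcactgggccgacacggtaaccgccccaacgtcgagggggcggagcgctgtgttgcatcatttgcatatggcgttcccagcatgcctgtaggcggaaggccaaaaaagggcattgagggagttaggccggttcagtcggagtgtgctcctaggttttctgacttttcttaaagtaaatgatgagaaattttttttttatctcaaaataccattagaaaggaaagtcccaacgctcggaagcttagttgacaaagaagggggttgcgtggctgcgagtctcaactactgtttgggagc
Isg20, chr1:142239809-142240108, plus strand: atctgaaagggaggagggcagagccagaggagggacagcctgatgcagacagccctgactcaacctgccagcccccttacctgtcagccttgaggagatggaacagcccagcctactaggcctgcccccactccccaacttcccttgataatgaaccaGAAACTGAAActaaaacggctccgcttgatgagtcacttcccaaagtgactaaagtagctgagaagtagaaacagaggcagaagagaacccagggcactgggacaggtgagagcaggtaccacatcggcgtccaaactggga
Psmb9, chr20:4668750-4669049, plus strand: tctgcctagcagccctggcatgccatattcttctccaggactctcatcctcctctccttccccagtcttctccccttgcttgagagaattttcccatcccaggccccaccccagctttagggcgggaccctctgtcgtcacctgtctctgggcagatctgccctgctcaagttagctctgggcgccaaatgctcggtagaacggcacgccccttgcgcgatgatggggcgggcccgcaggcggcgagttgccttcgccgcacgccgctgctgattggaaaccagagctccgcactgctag
Gbp2, chr2:234005477-234005776, plus strand: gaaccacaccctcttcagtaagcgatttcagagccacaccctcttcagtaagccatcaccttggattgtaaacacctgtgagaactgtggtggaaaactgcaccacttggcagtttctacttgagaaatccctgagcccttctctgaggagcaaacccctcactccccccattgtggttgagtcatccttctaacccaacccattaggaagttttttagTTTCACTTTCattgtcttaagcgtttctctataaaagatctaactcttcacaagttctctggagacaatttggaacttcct
The core starts at position -44 from the gene start in Ifit3, at -92 in Isg20 and at -31 in Gbp2, and the windows of Irf3 and Psmb9 hold none. Of 38 genes 30 had a promoter in the table, and 17 of these 30 (56.7%) held the core, against 3.92% of 33469 promoters of the same length. The STAT site TTCNNNGAA, searched on both strands too and absent from the 5 windows shown, was in 8 of 30 (26.7%), against 8.87% of all. The genes were listed for their known response to interferon, so the share describes the list, and a match is not a measured binding site.

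The receptor chain and the ISGF3 partners lay within their standard errors of control. Ifnar1, the signalling chain of the type I interferon receptor, had fitted means of 5456 with bufalin against 5483 in control, and of 5466 with periplocin against 5313 in control. Its 95% interval ran from 0.922-fold to 1.07-fold with bufalin and from 0.962-fold to 1.10-fold with periplocin. The authors' deposited table put Ifnar1 at -0.01 ± 0.06 and 0.04 ± 0.05 (log2, SE), with adjusted p-values of 0.985 and 0.991. Stat2, which carries the transactivation domain of ISGF3, had fitted means of 2501 with bufalin against 2590.3 in control, and of 2501 with periplocin against 2510.0 in control. The authors' deposited table put Stat2 at -0.05 ± 0.07 (SE, log2) for bufalin (adjusted p 0.864) and -0.01 ± 0.07 for periplocin (unadjusted p 0.943). Irf9, the part of ISGF3 that reads the DNA element, had fitted means of 355 with bufalin against 348 in control, and 357 with periplocin against 337 in control. The authors' deposited table put Irf9 at 0.03 ± 0.16 and 0.08 ± 0.17 (SE, log2).

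Among the other interferon regulatory factors, Irf3 had the smallest p of all listed genes. Irf3, the latent factor that turns on interferon genes once sensors signal, had a fitted mean of 2457 with periplocin against 2156 in control, a fold of 1.14 with an interval of 1.03 to 1.26. The authors' deposited table gave Irf3 a log2 change of 0.19 ± 0.07 (SE), with an unadjusted p of 0.0118 and an adjusted p of 0.462, so it did not pass. With bufalin Irf3 was at 0.11 ± 0.09 in the authors' deposited table (adjusted p 0.741). Irf2, known as a repressor that competes with Irf1, was at 0.11 ± 0.10 with bufalin and 0.11 ± 0.12 for periplocin in the authors' deposited table. Irf1 itself, an activator of class I and immunoproteasome genes, was at 0.00 ± 0.09 and -0.07 ± 0.09 there, in the authors' deposited table. Irf7, the amplifier of interferon production, was sparse, with fitted means of 150.0 with bufalin against 162 in control and of 171 with periplocin against 157 in control.

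Of the RNA sensors, Ddx58 lay below control and Ifih1 above it in each comparison, with no call for either. Ddx58, which encodes Rig-I, had fitted means of 673 with bufalin against 784 in control, and of 658 with periplocin against 759.7 in control. For Ddx58 the authors' deposited table gave log2 changes of -0.22 ± 0.15 and -0.21 ± 0.14 (SE), with unadjusted p-values of 0.133 and 0.139. Ifih1, which encodes Mda5, was at 0.08 ± 0.17 with bufalin and 0.17 ± 0.16 for periplocin in the authors' deposited table. Trim25, a ubiquitin ligase linked to Rig-I signalling, was at -0.00 ± 0.09 and 0.10 ± 0.09 in the authors' deposited table. Dhx58, which encodes the regulator Lgp2, was sparse, with fitted means of 9.66 with bufalin against 3.10 in control and 6.43 with periplocin against 3.02 in control. For Dhx58 the authors' deposited table gave 1.64 ± 1.34 and 1.09 ± 1.68 (log2, SE), with intervals that include 0.

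Of the Ifit genes, whose proteins bind foreign RNA and block its translation, Ifit3 lay farthest below control with bufalin. Ifit3 had a fitted mean of 93.6 with bufalin against 151 in control, 0.621-fold with an interval of 0.417 to 0.927. The authors' deposited table put Ifit3 at -0.69 ± 0.29 (log2, SE) with an unadjusted p of 0.0196, and adjusted over all genes p was 0.879. With periplocin Ifit3 had 134 against 146 in control, and stood at -0.12 ± 0.31 in the authors' deposited table. Ifit1 had fitted means of 140.3 with bufalin against 184 in control, and of 143 with periplocin against 179 in control. For Ifit1 the authors' deposited table gave -0.39 ± 0.30 and -0.32 ± 0.33 (log2, SE). Ifit2 had fitted means of 65.5 with bufalin against 85.5 in control, and of 99.9 with periplocin against 82.8 in control. The authors' deposited table put Ifit2 at -0.38 ± 0.35 (p = 0.270) and 0.27 ± 0.29 (p = 0.343). In the RefSeq gene order Ifit2 and Ifit3 are next to each other and 1 coding gene, Ifit1bl, lies between Ifit3 and Ifit1.

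The remaining effectors spread to both sides of 0. Isg15, a ubiquitin-like modifier, had fitted means of 41.9 with bufalin against 40.7 in control and 59.5 with periplocin against 39.4 in control. For Isg15 the authors' deposited table gave 0.04 ± 0.45 and 0.59 ± 0.40 (log2, SE), and with periplocin the interval of the fold ran from 0.883 to 2.58. Usp18, the protease that removes Isg15 and dampens receptor signalling, had 504 with bufalin against 578 in control and 463 with periplocin against 559.9 in control. Its log2 changes were -0.20 ± 0.13 and -0.27 ± 0.15 in the authors' deposited table, with unadjusted p-values of 0.126 and 0.0681. Isg20, an exonuclease that degrades RNA, had 405 with bufalin against 353 in control and 425 with periplocin against 342 in control. The unadjusted p-values of Isg20 were 0.285 and 0.0716 in the authors' deposited table. Oasl, a relative of the 2′-5′ oligoadenylate synthetases, was at -0.38 ± 0.25 with bufalin and -0.07 ± 0.21 for periplocin in the authors' deposited table. The synthetase Oas1a, the antiviral GTPases Mx1 and Mx2 and the virion tether Bst2, all with means under 100, had intervals that reached beyond 1.5-fold on at least 1 side in each comparison.

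Rsad2, which encodes the antiviral enzyme viperin, had a wider error with bufalin than genes of like depth. The authors' deposited table put Rsad2 at 0.44 ± 0.63 (log2, SE) with bufalin and -0.10 ± 0.31 with periplocin. The 200 genes nearest in mean count had a median SE of 0.190 with bufalin and 0.209 with periplocin, so the SE of Rsad2 was 3.31 and 1.48 times that of genes of like depth. All 200 had a smaller SE with bufalin. For Parp14, an ADP-ribosyltransferase induced by interferon, the comparison with genes of like depth gave an SE 1.86 times that of its neighbours in count with bufalin and 1.34 times with periplocin. This comparison of standard errors was chosen after seeing the data, and which library widens them was not tested.

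The effectors Eif2ak2 and Gbp2 were deeply counted and gave narrow limits, with larger standard errors for the other effectors given here. Eif2ak2, the kinase PKR that halts translation on double-stranded RNA, had fitted means of 13415 with bufalin against 13261 in control, and of 13190.2 with periplocin against 12848 in control. Its intervals were 0.931-fold to 1.10-fold and 0.956-fold to 1.10-fold. For Eif2ak2 the authors' deposited table gave 0.02 ± 0.06 and 0.04 ± 0.05 (log2, SE), with adjusted p-values of 0.962 and 0.993. Gbp2, a guanylate-binding GTPase, had fitted means of 2261 with bufalin against 2449 in control, and of 2439 with periplocin against 2373.0 in control. It was at -0.12 ± 0.07 with bufalin (adjusted p 0.646) and 0.04 ± 0.06 with periplocin (adjusted p 0.998) in the authors' deposited table. Parp9 and its partner ligase Dtx3l, which are neighbours of Parp14 in the RefSeq order, were at 0.01 ± 0.11 and 0.03 ± 0.14 for bufalin in the authors' deposited table. With periplocin Parp9 was at -0.00 ± 0.10 and Dtx3l at -0.03 ± 0.14 in the authors' deposited table. Ifi35, an interferon-induced leucine zipper protein, was at -0.11 ± 0.19 and -0.11 ± 0.18 in the authors' deposited table. Samhd1, which lowers the nucleotide pool that viruses need, was at -0.09 ± 0.13 and -0.16 ± 0.14 in the authors' deposited table.

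**Figure D3:**
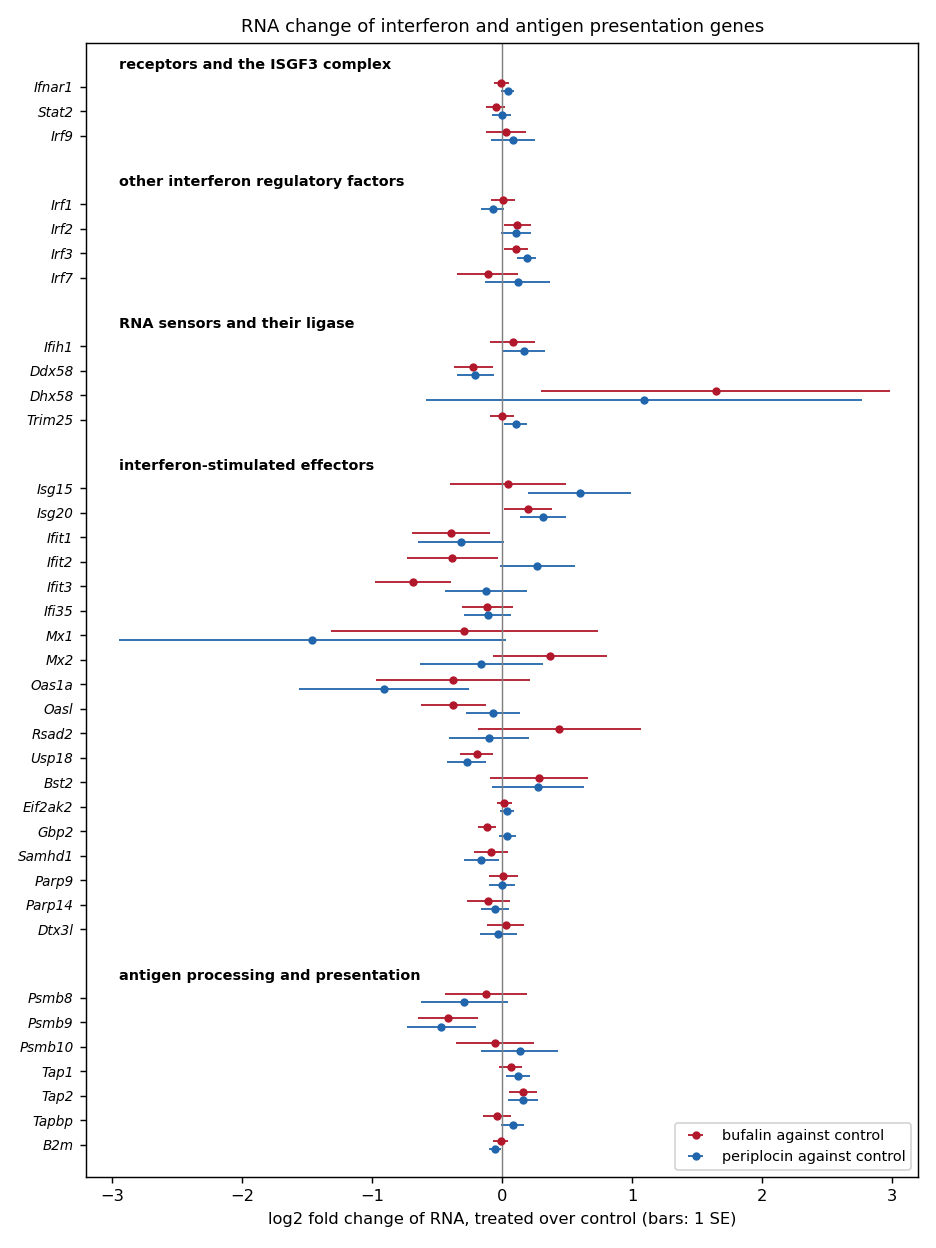
Log2 fold change of RNA, treated over control (x axis, bars 1 SE), for each listed gene by role, with bufalin (red) and periplocin (blue). Ifnar1, Eif2ak2 and B2m have narrow bars around 0, Ifit3 with bufalin lies at -0.69, and the widest bars belong to Dhx58 and Mx1, with means near or under 10.

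In antigen processing, transporter genes and immunoproteasome genes of 1 chromosomal cluster lay on opposite sides of 0, with no call for either. Tap2, Psmb8, Tap1 and Psmb9 follow each other on rat chromosome 20 in the RefSeq order, with 0 coding genes between them. Psmb9, a catalytic subunit of the immunoproteasome, had fitted means of 124 with bufalin against 165 in control and of 115 with periplocin against 159.5 in control. For Psmb9 the authors' deposited table gave -0.41 ± 0.23 and -0.47 ± 0.26 (log2, SE), with unadjusted p-values of 0.0728 and 0.0749. Psmb8, another catalytic subunit, was at -0.13 ± 0.32 and -0.29 ± 0.33 in the authors' deposited table, and Psmb10, the third and not in the cluster, at -0.06 ± 0.30 and 0.14 ± 0.30. Tap1 and Tap2, the chains of the transporter that moves peptides into the endoplasmic reticulum, stood at 0.06 ± 0.09 and 0.16 ± 0.11 with bufalin in the authors' deposited table. With periplocin they stood at 0.12 ± 0.09 and 0.16 ± 0.11 in the authors' deposited table. Tapbp, which encodes the bridging protein tapasin, had fitted means of 1312 with bufalin against 1349.5 in control and of 1383 with periplocin against 1308 in control.

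B2m, the light chain of every class I molecule, was among the most tightly measured genes of the list. It had fitted means of 9245 with bufalin against 9311 in control, with an interval of 0.918-fold to 1.07-fold. With periplocin it had 8683 against 9021 in control, with an interval of 0.905-fold to 1.02-fold. For B2m the authors' deposited table gave -0.01 ± 0.06 and -0.06 ± 0.05 (log2, SE), with adjusted p-values of 0.975 and 0.976.

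No listed gene passed the test of a difference between the compounds. The difference between bufalin and periplocin was tested through the shared control with an approximate Wald test over 10602 genes, of which 0.396% passed an adjusted p of 0.05, and 0 of the 35 listed genes that could be tested passed. The median bufalin minus periplocin difference was -0.05 (log2), with 13 genes above 0 and 22 below, against 0.00 over all genes. Unadjusted p-values under 0.05 belonged to Gbp2 and Ifit2, 2 of 35, where 6.34% of all genes had one. Gbp2 differed by -0.16, with limits of -0.29 and -0.02 (adjusted p 0.605), and Ifit2 by -0.66, with limits of -1.28 and -0.03 (adjusted p 0.748). With a standard error that ignores the shared control the intervals of both genes include 0. The interval of the difference was -0.15 to 0.06 for Ifnar1, -0.13 to 0.09 for Eif2ak2 and -0.06 to 0.15 for B2m, and it was -1.37 to 0.27 for Isg15 and -0.44 to 0.55 for Psmb9. Bufalin carries no sugar and periplocin does, and since doses are not given, these values compare the treatments and not the structures at matched dose.

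The rest of the pathway was read from a list of 78 further names, of which 68 were in the tables. With bufalin, 62 had a p-value and 0 passed over all genes, where 0.0932% of all genes passed. An unadjusted p under 0.05 was held by 6 with bufalin (9.68%), 4 above and 2 below control, against 5.0% of all genes, 3.04% higher and 1.96% lower. With periplocin, 59 had a p-value and 1 passed (1.69%), against 0.538% of all genes. An unadjusted p under 0.05 was held by 7 with periplocin (11.9%), 2 above and 5 below control, against 6.25% of all genes, 4.09% higher and 2.15% lower. The differences from these shares were not tested. The median log2 change was -0.03 over 51 genes with bufalin and -0.05 over 52 genes with periplocin. The genes for the interferons Ifnb1 and Ifng had a mean of 0 in both tables, and Ifna1 had a mean of 0.173 with bufalin and its control and of 0 with periplocin and its control. The receptor kinase Jak1 was at 0.06 ± 0.05 with bufalin and -0.03 ± 0.04 for periplocin in the authors' deposited table.

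The 1 gene that passed was RT1-Bb, a class II beta chain, and it rested on few counts. Its fitted mean was 16.6 with periplocin against 0.180 in control (adjusted p 0.0109 in the authors' deposited table). With the lower mean raised to a floor of 3 counts per library, it was 5.55-fold higher. Such a ratio depends on the chosen floor and is not a confidence limit. With bufalin the fitted mean of RT1-Bb was 11.9 against 0.184 in control, 3.96-fold higher at that floor. The authors' deposited table gave it an unadjusted p of 0.000564, which was 0.226 after adjustment over all genes. Other class II genes were as sparse, with RT1-Ba at means of 6.46 and 8.64 in the bufalin and periplocin tables, RT1-Db1 at 6.58 and 3.51, Cd74 at 6.78 and 4.28, and RT1-Da at 0 in both. They did not share a direction. RT1-Db1 had fitted means of 0.181 with periplocin against 6.84 in control, 2.28-fold lower at that floor. The authors' deposited table put RT1-Db1 at -5.24 ± 2.29 (log2, SE) with periplocin (unadjusted p 0.0220). RT1-Ba had 2.74 with bufalin against 10.2 in control (unadjusted p 0.221 in the authors' deposited table). Cd74, the class II invariant chain, had 12.2 with bufalin against 1.34 in control, 4.07-fold higher at that floor. The authors' deposited table put Cd74 at 3.19 ± 1.46 (log2, SE) with bufalin (unadjusted p 0.0293). RT1-CE5, a class I gene with many close copies, was at 0.82 ± 0.38 with bufalin (p = 0.0305) and 0.74 ± 0.36 with periplocin (p = 0.0372) in the authors' deposited table. RT1-N3, a further class I relative, was at -0.37 ± 0.15 with bufalin in the authors' deposited table (p = 0.0139).

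Among signalling and processing genes, Socs3, which blocks cytokine receptor kinases, was at -0.35 ± 0.11 with periplocin in the authors' deposited table (unadjusted p of 0.00175 and adjusted p of 0.162). Pdia3, a chaperone of class I loading, was at -0.12 ± 0.04 with periplocin (p = 0.00768) in the authors' deposited table. Psme2, part of the proteasome activator, was at -0.14 ± 0.07 (p = 0.0433) and the membrane protein Ifitm2 at -0.19 ± 0.09 (p = 0.0367) with periplocin in the authors' deposited table. The chaperone calreticulin, Calr, under bufalin was at 0.21 ± 0.10 (p = 0.0310) in the authors' deposited table. These p-values are unadjusted, and none of the 5 values passed over all genes. With bufalin in the authors' deposited table, Socs3 was at 0.15 ± 0.18 and Pdia3 at 0.02 ± 0.05. Psme2 stood at -0.09 ± 0.08 and Ifitm2 at -0.10 ± 0.10 with bufalin there. Calr with periplocin was at 0.03 ± 0.04 in the authors' deposited table.

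m6A peaks were found on 14 of the 37 genes, 10 in the bufalin list and 11 in the periplocin list, with 24 peaks in each. A list holds the peaks called for 1 comparison, treated and control together, and its fold enrichment per peak is the authors' own value, read as IP over input. Genes with a peak were Ifnar1, Irf1, Irf2, Ddx58, Trim25, Ifit1, Ifit3, Ifi35, Eif2ak2, Gbp2, Parp9, Parp14, Dtx3l and Tap1, and 7 of them had peaks in both lists. Of the 17 listed genes with a mean of at least 500, 9 had a peak in the bufalin list (52.9%) and 7 in the periplocin list (41.2%), against 63.3% and 60.8% of all such genes. B2m, Stat2, Irf3, Tap2, Tapbp, Samhd1 and Usp18 had such a mean and no peak in either list, while Ifi35, Ifit1, Ifit3 and Dtx3l had peaks at means under 500. The difference in these shares was not tested.

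The strongest enrichment was on Parp14 and Ifnar1. On rn6, Parp14 had a peak of 250 bases at chr11:68119628-68119877 with a fold enrichment of 3.85 in the bufalin list, and of 2.99 over its inner 150 bases in the periplocin list. Ifnar1 had a peak of 150 bases at chr11:31662470-31662619 with a fold of 3.40 in the bufalin list and 3.34 in the periplocin list, with a log10 p of enrichment of -21.7 and -19.6. A second Ifnar1 peak of 150 bases at chr11:31661921-31662070 had folds of 2.42 and 2.66. Trim25 had a peak at chr10:76361650-76361799 with folds of 2.52 and 2.57. On Tap1, the peak at chr20:3989124-3989223 had folds of 2.04 and 2.35. On Dtx3l, the peak joined over 2 blocks between chr11:67762892-67763758 had folds of 1.94 and 2.42. The median fold over the 24 peaks was 1.94 in the bufalin list and 1.86 in the periplocin list, against 1.82 and 1.81 over all 9866 and 9170 peaks. Where these peaks lie in exons or untranslated regions was not analysed here, since it needs an rn6 annotation.

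**Figure D4:**
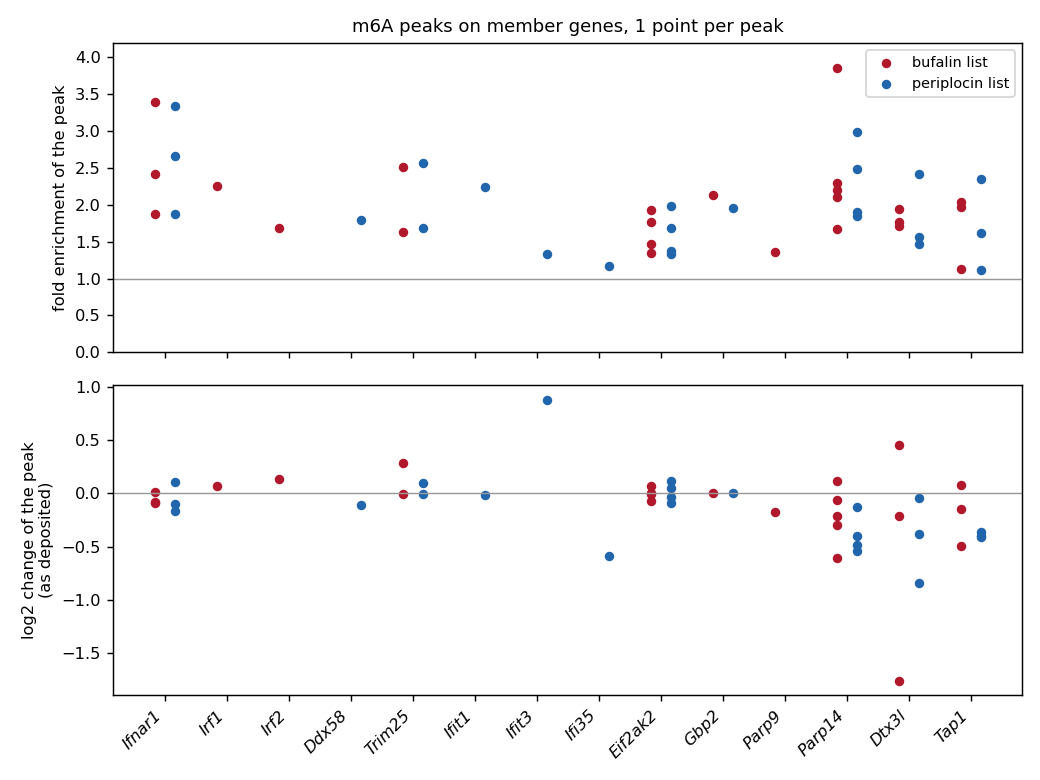
m6A peaks on the listed genes, 1 point per peak, in the bufalin list (red) and the periplocin list (blue). The upper panel gives the fold enrichment and the lower panel the log2 change as deposited. Parp14 and Ifnar1 hold the highest folds, at 3.85 and 3.40, and the lowest change is -1.76 on Dtx3l in the bufalin list.

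Most peaks of the module were in both lists at the same place, as were most peaks of all genes. In each list 19 of 24 peaks (79.2%) shared at least 1 base with a peak of the other list on the same strand, against 83.0% of all peaks of the bufalin list and 89.4% of the periplocin list. Both lists share the control libraries. Eif2ak2 had 4 peaks in each list with folds from 1.33 to 1.99, all of them shared, and Gbp2 had 1 shared peak joined over 4 blocks with folds of 2.13 and 1.96. In the bufalin list alone were the peaks of Irf1, Irf2 and Parp9 and 1 peak each of Dtx3l and Parp14. In the periplocin list alone were the peaks of Ifit1, Ifit3, Ddx58 and Ifi35 and 1 peak of Dtx3l. The Ifit1 peak, at chr1:252944999-252945148, had a fold of 2.24 and a log10 p of enrichment of -20.8, the lowest of the 24 in its list. A peak in 1 list only is not a tested difference, and the authors' change of the Ifit1 peak was -0.01 (log2, p = 0.812).

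No peak on a listed gene passed the test of a change with treatment. An FDR of the change under 0.05 was reached by 0 of 24 peaks in each list, against 0.0304% of all peaks with bufalin and 0.0436% with periplocin. At an unadjusted p under 0.05 there was 1 peak in each list, where 3.04% and 3.37% of all peaks had one. With bufalin it was the Dtx3l peak joined over 2 blocks, with the authors' log2 change of -1.76 (p = 0.0162, FDR 1). With periplocin it was a Parp14 peak of 250 bases at chr11:68118580-68118829, with the authors' log2 change of -0.54 (p = 0.00912, FDR 0.920). The direction of the change is not stated in the files and was read as treated over control. In the authors' lists the same Dtx3l peak was at -0.84 in the periplocin list (p = 0.270), and the overlapping Parp14 peak at -0.30 in the bufalin list (p = 0.204).

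On the listed genes, the largest change in the periplocin list was on Ifit3, at 0.88 (log2, p = 0.994 from the authors). The other changes beyond 0.5 in size there were -0.84 on Dtx3l, -0.59 on Ifi35 and -0.54 on Parp14. In the bufalin list 22 of 24 changes were smaller than 0.5 in size (log2), 15 were below 0 (62.5%, against 54.8% of all peaks) and 9 above, and the median was -0.03, against -0.02 over all peaks. In the periplocin list 20 of 24 were smaller than 0.5, 18 were below 0 (75%, against 52.3% of all peaks) and 6 above, and the median was -0.10, against -0.01 over all peaks. Of those 18, 4 were on Parp14, 3 on Dtx3l and 3 on Tap1. Counted by gene in the periplocin list, 6 of 11 had all their peaks below 0 and 2 of 11 all above, against 37.6% and 34.1% of 4879 genes. In the bufalin list these numbers were 1 of 10 and 3 of 10, against 38.9% and 31.7% of 5122 genes. The differences from these shares were not tested, and peaks of 1 gene share its libraries and its RNA level. The 4 Parp14 peaks had changes from -0.54 to -0.13 with periplocin, while its RNA was at -0.06 ± 0.11 in the authors' deposited table. With bufalin the 5 Parp14 peaks had changes from -0.61 to 0.11, and its RNA was at -0.11 ± 0.16 in the authors' deposited table. The peaks of Ifnar1, Eif2ak2, Trim25 and Gbp2 had changes between -0.17 and 0.29 in both lists.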

How the data were processed

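RNA of H9c2 cells was measured by MeRIP-seq in 18 samples, grouped as labelled. The submitters' processing notes name HISAT2, StringTie, DESeq and build rn6; the sources used here give no versions and no peak caller. The expression tables' signal is a mean normalized count over libraries, scaled by the authors, per the file headers. The log2 fold changes, standard errors, Wald scores, p-values and adjusted p-values are the authors' DESeq2 results, per the file headers. The peak lists hold the authors' fold enrichment (a ratio), its p-value and log10 p, and the log2 change with its log10 p and FDR, per the file headers.

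Read as treated over control, fitted control means were higher in the bufalin table than in the periplocin table, by a median of 0.0456 (log2). A gene's control mean therefore has a different value in each comparison. With the median offset removed, this was the 1 reading under which control means of both tables coincided within 1% in 10602 of 10602 genes. In the periplocin table the Wald score has the sign opposite to the fold change in all 12913 genes, so signs were taken from the fold change. For bufalin against periplocin an approximate Wald test was used, since a count model needs counts per sample and the files held comparisons. The spread beyond counting noise was worked out from each standard error, and the shared control cancels. The test was run on simulated counts whose standard errors came from the same formula that the test inverts. That run therefore cannot show how well the test works on the authors' standard errors. Intervals are 95% Wald intervals. Libraries' depth was not analysed here, and precision rests on the authors' standard errors.

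Genes and lists were chosen with earlier results of these data known. All listed genes may be named. Full values go to genes with an unadjusted p under 0.05, the 5 with the highest mean, Stat2, Irf9, Isg15 and B2m, and others were named by role after their values were seen. Further pathway genes were named at an unadjusted p under 0.05, and Jak1, interferon and class II genes after their values were seen; some genes of that list are counted but not reported here by name. Peaks were named at an unadjusted p of the change under 0.05 or for their enrichment, and further ones after their values were seen. Markers of endothelial, epithelial and cardiomyocyte cells had a mean of at least 10 in 2 of 5, 1 of 4 and 3 of 5 in each table. Sequences and gene order come from RefSeq tables of GRCr8, which matched 38 of 38 names, and no coordinate was converted. Alternatives covered thresholds, count filters, the adjustment, the standard error and peak choice. Computations used matplotlib 3.10.9, scipy 1.17.1, Python 3.11.15, pandas 2.3.3 and numpy 2.4.6.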

Additional observations from a re-analysis of the deposited data

How the results depend on the processing

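The counts of 0 called genes with bufalin, with periplocin and between the compounds, and of 0 called peaks in both lists, stayed at 0 under every alternative run but 1. These were an adjusted p or FDR of 0.1, other sets of genes for the adjustment, an upper limit of the standard error, other filters on the mean and a minimum fold enrichment of 2. The exception was an unadjusted p under 0.05, which gave 1 gene with bufalin, 1 gene with periplocin, 1 peak with bufalin and 1 peak with periplocin. Between the compounds that threshold gave 2 of 35 genes, Gbp2 and Ifit2, where 6.34% of all genes passed it. The median RNA change of the listed genes was -0.03 with bufalin and became -0.01 with a mean of at least 100 or with all genes, and stayed at -0.00 with periplocin. With the most enriched peak per gene, the median peak change was 0.01 with bufalin and -0.10 with periplocin. No paired analysis was possible because the files hold comparisons and no values per library. For the same reason no library could be left out.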

Other observations

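The spread of the changes differed with depth. Of the 17 with a mean of at least 500, log2 changes ran from -0.22 to 0.16 with bufalin and from -0.27 to 0.19 with periplocin. Among the 20 with a mean under 500 they ran from -0.69 to 1.64 and from -1.46 to 1.09, with standard errors of up to 1.34 and 1.68.

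Rsad2 in the bufalin table had the largest standard error for its depth of all 37 genes, at 3.31 times the median of the 200 genes nearest in mean count. The Ifit1 peak had the lowest log10 p of enrichment of the module's peaks in the periplocin list, at -20.8, and no peak overlapped it in the bufalin list. The fitted mean of Ifit1 was 140.3 with bufalin and 143 with periplocin, against 184 and 179 in control.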
